A study of Arabidopsis thaliana with 9 samples.

Results

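Among the transcripts measured in leaves of Arabidopsis thaliana plants that lack the catalase CAT2, 90 probe sets were higher when the NADPH oxidase RBOHF was also missing and higher when RBOHD was also missing. They were chosen from the 22746 probe sets of an Affymetrix array that are not controls, using the deposited log2 expression values. The mean of the 3 cat2-2 atrbohF arrays had to be at least 5.5, and the means of cat2-2 atrbohF and of cat2-2 atrbohD each had to lie 0.5 or more above the mean of cat2-2. Of 12766 probe sets past the level of 5.5, 474 were 0.5 or more higher in cat2-2 atrbohF and 128 in cat2-2 atrbohD, and the 90 described here met both conditions. Both differences are taken against the same 3 cat2-2 arrays and both chose the members, so the size of either rise is given as a description, with no test.

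The genotypes compared, all of the Columbia-0 ecotype, were cat2-2 atrbohF, cat2-2 atrbohD and cat2-2, which the genotype field of the labels shortens to cat2 rbohF, cat2 rbohD and cat2. All carry the cat2-2 mutation, and each double mutant adds a mutation in 1 oxidase gene. Plants were raised in air for 3 weeks at 200 µmol m-2 s-1, in days of 16 h light and 8 h dark at 65% relative humidity, and leaves of at least 8 plants were pooled for each of 3 arrays per genotype. The labels name 1 allele of each gene, and arrays of wild-type plants were not analysed here, which leaves cat2-2, itself without CAT2, as the baseline.

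CAT2 is the main catalase of leaf peroxisomes and breaks down the hydrogen peroxide that photorespiration releases there; leaves without it accumulate oxidative signals inside the cell when photorespiration is active. RBOHD and RBOHF sit in the plasma membrane and pass electrons from cytosolic NADPH to oxygen outside the cell, where superoxide and then hydrogen peroxide form. They are best known in leaves for their part in pathogen defence, stomatal closure and the spread of stress signals. Transcripts higher in both double mutants are those at a lower level in cat2-2 leaves that have both oxidases than in leaves that lack either one.

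The array medians lay between 6.05 and 6.12, and the 5 measured genes of a photosynthesis list had genotype means of 10.3 to 14.2, at or above the 95.2th percentile of all values. These genes mark green leaf tissue, as labelled. The annotation used here named no probe set of RBOHD, RBOHF or CAT2, so the genotype labels were not checked by the transcripts of the mutated genes. Of 54 marker loci of other cell types and organs, 6 had a probe set of 1 gene, 4 were tested and 0 were members. The root marker PYK10, a beta-glucosidase of endoplasmic reticulum bodies, stood at 9.17, 8.71 and 9.01 in cat2-2 atrbohF, at 8.11, 7.83 and 8.07 in cat2-2 atrbohD and at 8.11, 6.96 and 7.78 in cat2-2, and its part in the members' values was not tested. The 3' minus 5' difference of the GAPDH control probe sets, a measure of RNA integrity, was 0.87, 0.88 and 0.99 in cat2-2 atrbohF, 0.81, 0.82 and 0.95 in cat2-2 atrbohD and 0.69, 0.78 and 0.79 in cat2-2 on the log2 scale, so every double mutant array lay above every cat2-2 array. The ranges of that difference for actin and ubiquitin overlapped between the genotypes. The part of RNA integrity in the members' values was not tested.

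In the members, array 3 of cat2-2 atrbohD often lay above the other 2 arrays of its genotype, and it bears on every value of that genotype below. It was the highest cat2-2 atrbohD array in 57 of the 90 members (against 34.4% of all tested probe sets) and lay 0.5 or more above the mean of arrays 1 and 2 in 42 members (against 4.65% of all tested probe sets). It was above all 3 cat2-2 atrbohF arrays in 37 members (against 33.3% of all tested probe sets). Over all tested probe sets, the median difference of array 3 from the mean of arrays 1 and 2 was 0.0053. The rule asked for a high cat2-2 atrbohD mean, which favours probe sets where any 1 of its arrays is high. These counts are therefore a description of the members and not of the array as a whole. When array 3 was left out, 46 of the 90 members still met the rule and 44 did not. Leading counts are therefore given for all 90 members and for the 46.

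Of the 90 members, 47 had a probe set that the annotation pairs with 1 gene, 4 had a probe set of several genes and 39 were not listed, so they are unnamed here. The 47 genes lie on all 5 nuclear chromosomes, with 11, 5, 6, 11 and 10 on chromosomes 1, 2, 3, 4 and 5, and 4 in the plastid genome. They include enzymes of anthocyanin and chlorophyll synthesis, small plastid-encoded photosystem subunits, sugar transporters, cell wall enzymes, small defence proteins, and acid phosphatase and lipase family members. The direct neighbours among them are AT4G30650 with AT4G30660 on chromosome 4 and psbK with psbI in the plastid genome. The s_at type, which can read near-identical transcripts of more than 1 gene, accounts for 5 members. In RNA of whole leaves, more cells of a type and more RNA per cell cannot be told apart.

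The rise was larger without RBOHF than without RBOHD in most members. The difference from cat2-2 was 0.50 to 3.21 with a median of 0.91 in cat2-2 atrbohF, and 0.50 to 1.59 with a median of 0.63 in cat2-2 atrbohD, on the log2 scale. As folds, the median was 1.88 in cat2-2 atrbohF and 1.55 in cat2-2 atrbohD. The cat2-2 atrbohF rise was the larger in 71 members and the cat2-2 atrbohD rise in 19. With array 3 of cat2-2 atrbohD left out, the split was 84 to 6. For the 44 members that did not meet the rule without array 3, this direction was fixed in advance. Their cat2-2 atrbohF rise was 0.5 or more, and their rise on arrays 1 and 2 of cat2-2 atrbohD was under 0.5. Among the 46 members that met the rule without array 3, the split was 39 to 7 over all arrays and 40 to 6 without array 3. These 46 were chosen on both rises as well, so their split is a description too. Over all tested probe sets, the cat2-2 atrbohF mean was above the cat2-2 atrbohD mean in 49.5%. Taken as a ratio of log2 rises, cat2-2 atrbohF over cat2-2 atrbohD ran from 0.70 to 2.49 with a median of 1.37. The cat2-2 atrbohF rise was at least 1.5 times the other in 37 members, and the reverse held in 0. A rise of 1 or more was seen in 36 members in cat2-2 atrbohF, in 6 in cat2-2 atrbohD, and in 3 in both. Among the 46 members that met the rule without array 3, the medians over all arrays were 1.11 in cat2-2 atrbohF and 0.75 in cat2-2 atrbohD; among the other 44 they were 0.72 in cat2-2 atrbohF and 0.56 in cat2-2 atrbohD.

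**Figure D1:**
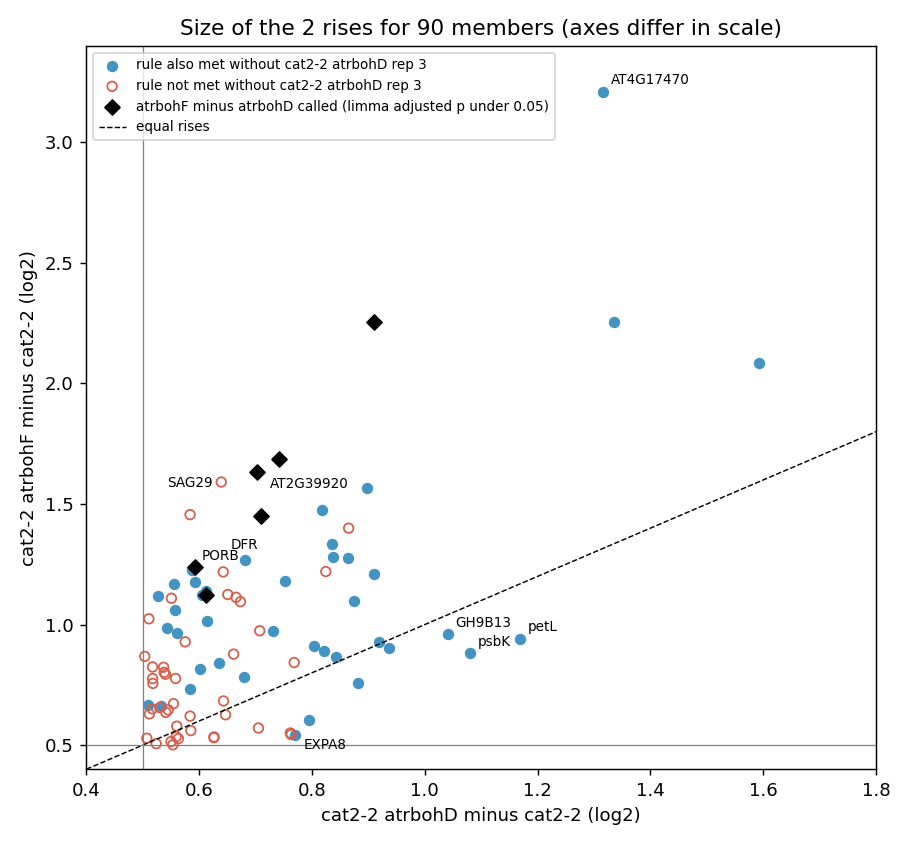
Each point is 1 of the 90 probe sets, with its mean difference cat2-2 atrbohD minus cat2-2 across and cat2-2 atrbohF minus cat2-2 up, both in log2 units and on axes of different scale; grey lines mark the 0.5 of the rule and the dashed line equal rises. 71 points lie above the dashed line, AT4G17470 reaches 3.21 up, the 6 black diamonds are the members called in the direct comparison of the double mutants, and open circles are the 44 members that did not meet the rule without array 3 of cat2-2 atrbohD.

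The direct comparison between the double mutants asks whether the 2 rises differ in size. The rule set no condition on it, but it is the difference between the 2 rises that chose the members. This comparison was fitted with limma over all 13888 probe sets that passed a filter on low values, as all 90 members did. A probe set was called at a Benjamini-Hochberg adjusted p under 0.05. Of the members, 6 were called higher in cat2-2 atrbohF than in cat2-2 atrbohD, which is 6.67% of them, against 0.864% of all tested probe sets. None was called lower (0 of 90 by limma, against 1.06% of all tested probe sets; 1.92% were called in either direction). At an unadjusted limma p under 0.05, 26 members were higher in cat2-2 atrbohF and 0 were lower, against 10.3% of all tested probe sets higher and 11.9% lower. The rule restricts this difference, which in no member can exceed the larger rise minus 0.5. Past the level, 474 probe sets met the cat2-2 atrbohF condition and 128 the cat2-2 atrbohD condition, so choosing on both can tilt the difference. The shares of members are therefore a description, and nothing is read from their gap to the shares of all tested probe sets. The median difference was 0.25 over the members and -0.0021 over all tested probe sets, with a range of -0.23 to 1.89 in the members.

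PORB, an NADPH-dependent protochlorophyllide oxidoreductase that makes chlorophyllide in the light, was one of the 6. Its log2 values on arrays 1, 2 and 3 were 11.50, 11.38 and 11.54 in cat2-2 atrbohF, 10.85, 10.92 and 10.72 in cat2-2 atrbohD, and 10.10, 10.39 and 10.21 in cat2-2. The 3 genotypes formed 3 separate steps with no overlap. The direct difference was 0.64 ± 0.10 (SE, 3 arrays per genotype; limma adjusted p = 0.032), and the rises over cat2-2 were 1.24 in cat2-2 atrbohF and 0.59 in cat2-2 atrbohD. The call was lost when array 1 or 2 of cat2-2 atrbohD or array 1 or 3 of cat2-2 atrbohF was left out. It was also lost on the 6 arrays of the double mutants alone, and the limma adjusted p in these fits was up to 0.17.

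AT2G39920 encodes a protein of the HAD-type acid phosphatase family. It stood at 7.33, 7.17 and 7.57 in cat2-2 atrbohF, 6.63, 6.28 and 6.37 in cat2-2 atrbohD, and 5.43, 6.15 and 5.60 in cat2-2. Every cat2-2 atrbohF array lay above every cat2-2 atrbohD array, and these lay above the cat2-2 arrays, with the second cat2-2 array closest to them. The difference between the double mutants was 0.93 ± 0.18 (SE, n = 3 arrays each; limma adjusted p = 0.0445), and it lost the call in 6 of the fits that left out 1 array, with no filter, on the 6 arrays of the double mutants alone and with the replicate number as a block, with a limma adjusted p of up to 0.18.

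The other 4 called members have no single gene name. Probe set 262661_s_at, which reads several genes, was at 9.98, 9.69 and 10.02 in cat2-2 atrbohF, 8.51, 8.50 and 8.64 in cat2-2 atrbohD, and 7.03, 7.94 and 7.95 in cat2-2. Its genotypes formed separate steps, and its direct difference was 1.35 ± 0.22 (SE; limma adjusted p = 0.0324). The direct differences of 255331_at, 250649_at and 252468_at were 0.95, 0.74 and 0.51, with limma adjusted p of 0.0345, 0.032 and 0.0491. Each of the 6 calls was lost without at least 3 of the 9 arrays in turn. The count of called members was 0 without array 2 of cat2-2 atrbohD, and 0 without array 1 or array 3 of cat2-2 atrbohF. It was 1 without array 1 of cat2-2 atrbohD, and 3 without array 3 of cat2-2. Calls over the whole table also moved widely between the fits that left out 1 array, as the closing section gives. The losses are therefore not read as particular to these 6 members.

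Without array 3 of cat2-2 atrbohD the count moved the other way, to 20 members called higher in cat2-2 atrbohF. Of these, 10 had 1 gene. Calls also grew over the whole table, to 2.85% of the probe sets tested in that fit. In members that met the rule only with array 3, the sign of the difference in that fit was fixed by the rule. The gain in calls is therefore a description. AT4G17470, an alpha/beta hydrolase of the palmitoyl-protein thioesterase family, met the rule without array 3 as well. It had the largest cat2-2 atrbohF rise of all members, with 9.33, 8.51 and 9.64 in cat2-2 atrbohF, 6.88, 6.61 and 8.30 in cat2-2 atrbohD, and 5.64, 5.94 and 6.26 in cat2-2. The genotypes did not overlap, but array 3 of cat2-2 atrbohD reached nearly the lowest cat2-2 atrbohF array. That left a direct difference of 1.89 ± 0.42 (SE, n = 3 each) at a limma adjusted p of 0.0526; without array 3 it was 2.41 with an adjusted p of 0.00655. As folds over cat2-2, the means were 9.25 times higher in cat2-2 atrbohF and 2.49 times higher in cat2-2 atrbohD.

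**Figure D2:**
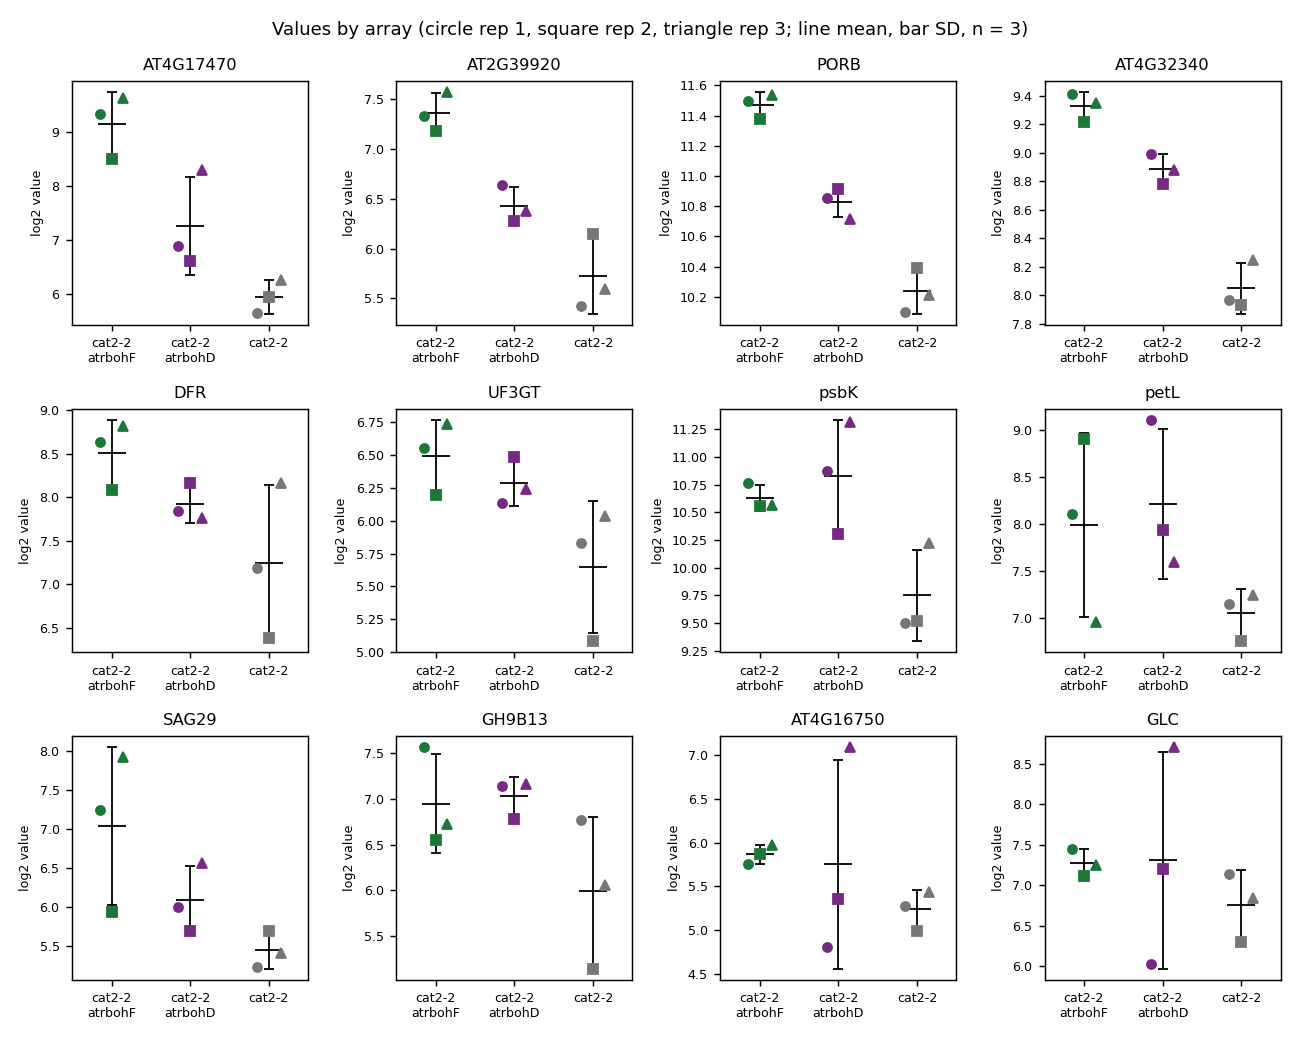
Log2 values of 12 members by genotype, cat2-2 atrbohF at left, cat2-2 atrbohD in the middle and cat2-2 at right; circles, squares and triangles are arrays 1, 2 and 3, the horizontal line is the mean and the bar the SD (n = 3), and each panel has its own axis that does not start at 0. PORB, AT4G32340 and AT2G39920 form 3 separate steps, DFR and UF3GT spread widely in cat2-2, and in AT4G16750 and GLC the triangle of cat2-2 atrbohD lies far above every other array.

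The members with a name were grouped by the role of the gene after the names were seen, which placed 28 of the 47 in 9 groups. A group of 3 holds late enzymes of anthocyanin synthesis, the pathway that makes the red and purple pigments of stressed leaves. DFR, the dihydroflavonol reductase that commits dihydroflavonols to this branch, was at 8.63, 8.08 and 8.81 in cat2-2 atrbohF, 7.84, 8.16 and 7.76 in cat2-2 atrbohD, and 7.18, 6.38 and 8.16 in cat2-2. UF3GT, which adds xylose to the anthocyanin glucoside, was at 6.55, 6.19 and 6.73 in cat2-2 atrbohF, 6.13, 6.48 and 6.24 in cat2-2 atrbohD, and 5.83, 5.08 and 6.04 in cat2-2. AT4G14090, an anthocyanin glucosyltransferase, was at 7.25, 6.97 and 7.33 in cat2-2 atrbohF, 6.94, 7.15 and 6.82 in cat2-2 atrbohD, and 6.35, 5.76 and 6.99 in cat2-2.

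The 3 anthocyanin genes shared one array pattern: in cat2-2, array 2 was lowest and array 3 highest for each, and array 3 of cat2-2 overlapped with the double mutants for DFR and AT4G14090. Their mean rises were 0.82 to 1.27 in cat2-2 atrbohF and 0.60 to 0.68 in cat2-2 atrbohD. All 3 left the rule when array 2 of cat2-2 was left out. The direct difference between the double mutants was 0.59 for DFR (95% interval -0.26 to 1.43), 0.21 for UF3GT (-0.31 to 0.73) and 0.21 for AT4G14090 (-0.36 to 0.79), and none was called. UGT78D2, a flavonoid 3-O-glucosyltransferase of the same pathway list and no member, was higher by 0.10 in cat2-2 atrbohF and by 0.08 in cat2-2 atrbohD.

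A group of 4 members is encoded in the plastid genome, with direct differences of -0.23 to 0.16 between the double mutants and wide intervals. psbK and psbI, neighbouring genes of small photosystem II subunits, behaved alike. psbK was at 10.77, 10.56 and 10.57 in cat2-2 atrbohF, 10.87, 10.30 and 11.31 in cat2-2 atrbohD, and 9.50, 9.52 and 10.23 in cat2-2. psbI was at 10.89, 10.74 and 10.97 in cat2-2 atrbohF, 10.97, 10.50 and 11.23 in cat2-2 atrbohD, and 9.62, 9.81 and 10.46 in cat2-2. In both genes all arrays of both double mutants lay above all cat2-2 arrays, while the double mutants overlapped with each other. The direct difference was -0.20 for psbK (95% interval -0.77 to 0.37) and -0.03 for psbI (-0.54 to 0.48).

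petL, a small subunit of the cytochrome b6f complex, and ndhE, a subunit of the chloroplast NADH dehydrogenase-like complex, met the rule with far more scatter. petL was at 8.10, 8.91 and 6.96 in cat2-2 atrbohF, 9.11, 7.94 and 7.59 in cat2-2 atrbohD, and 7.15, 6.75 and 7.24 in cat2-2. Array 3 of cat2-2 atrbohF lay below 2 of the 3 cat2-2 arrays. ndhE was at 8.33, 7.96 and 7.11 in cat2-2 atrbohF, 8.14, 7.51 and 7.29 in cat2-2 atrbohD, and 7.14, 7.26 and 7.0 in cat2-2, and here too array 3 of cat2-2 atrbohF fell among the cat2-2 arrays. Over the 64 tested plastid probe sets, these 4 included, the median difference from cat2-2 was 0.12 in cat2-2 atrbohF and -0.07 in cat2-2 atrbohD. They also varied more between arrays than most, with a median SD within genotypes of 0.24 against 0.13 over all tested probe sets. Of the 64, limma called 3 higher in cat2-2 atrbohF than in cat2-2, which is 4.69% of them against 6.47% of all tested probe sets, and 0 higher in cat2-2 atrbohD than in cat2-2. The 3 include psbK and psbI, which the rule chose on this contrast, so nothing is read from that share.

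Among transporters, 2 sugar exporters of the SWEET family were members. SAG29, also called SWEET15, is known from senescing leaves, and it was at 7.24, 5.94 and 7.93 in cat2-2 atrbohF, 6.0, 5.69 and 6.56 in cat2-2 atrbohD, and 5.22, 5.69 and 5.42 in cat2-2. Array 2 was lowest in both double mutants, and in cat2-2 atrbohD it was no higher than the highest cat2-2 array. Its direct difference of 0.95 ± 0.42 (SE, n = 3 each) was not called (limma adjusted p = 0.225). SWEET13, which carries sucrose, was at 6.31, 6.04 and 6.23 in cat2-2 atrbohF, 6.49, 5.95 and 5.76 in cat2-2 atrbohD, and 5.31, 5.34 and 5.95 in cat2-2. Its cat2-2 atrbohD arrays overlapped with cat2-2, and the direct difference was 0.13 (95% interval -0.35 to 0.60). AT1G22550, of the nitrate and peptide transporter family, was higher by 1.12 in cat2-2 atrbohF and by 0.65 in cat2-2 atrbohD.

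Of the SWEET list, 8 genes were tested, with medians of 0.39 in cat2-2 atrbohF over cat2-2, 0.18 in cat2-2 atrbohD over cat2-2 and 0.13 between the double mutants, against 0.0076, -0.0046 and -0.0021 over all tested probe sets. The medians include SAG29 and SWEET13, which the rule chose on both contrasts with cat2-2. Nothing is therefore read from their gap to the values over all tested probe sets. SWEET1, SWEET2, SWEET4 and SWEET11 differed from cat2-2 by -0.16 to 0.14 in cat2-2 atrbohF and by -0.20 to 0.09 in cat2-2 atrbohD. SWEET16 and SWEET17, sugar carriers of the vacuole membrane, were no members. SWEET17 was higher by 0.63 in cat2-2 atrbohF and by 0.28 in cat2-2 atrbohD. SWEET16 was higher by 0.92 in cat2-2 atrbohF and by 0.48 in cat2-2 atrbohD, just short of the rule. Its cat2-2 atrbohD values were 5.96, 5.92 and 6.97, with array 3 the highest here too.

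Another 5 members act on the cell wall or cytoskeleton, and in 3 of them the cat2-2 atrbohD rise was the larger, though for EXPA8 not without array 3. GH9B13, an endoglucanase of glycosyl hydrolase family 9, was at 7.57, 6.55 and 6.73 in cat2-2 atrbohF, 7.14, 6.78 and 7.16 in cat2-2 atrbohD, and 6.77, 5.14 and 6.05 in cat2-2. Its spread in cat2-2, an SD of 0.82, was among the widest, and array 1 of cat2-2 lay above 2 of the cat2-2 atrbohF arrays. EXPA8, an expansin that loosens walls, was at 9.36, 9.64 and 9.40 in cat2-2 atrbohF, 9.79, 9.08 and 10.21 in cat2-2 atrbohD, and 9.0, 8.79 and 8.99 in cat2-2. TBL36, of a family of wall polysaccharide acetyltransferases, was at 6.74, 6.09 and 6.39 in cat2-2 atrbohF, 6.74, 6.23 and 6.61 in cat2-2 atrbohD, and 6.0, 5.5 and 5.44 in cat2-2. For EXPA8 and TBL36 both double mutants stood above all cat2-2 arrays. The direct difference was -0.08 for GH9B13 (95% interval -0.93 to 0.77), -0.23 for EXPA8 (-0.75 to 0.29) and -0.12 for TBL36 (-0.58 to 0.33).

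AT1G57590, a pectin acetylesterase, and TUB5, a beta-tubulin, leaned to cat2-2 atrbohF instead. AT1G57590 was at 8.95, 8.69 and 9.24 in cat2-2 atrbohF, 8.68, 8.38 and 8.62 in cat2-2 atrbohD, and 7.69, 7.94 and 8.21 in cat2-2, in 3 steps without overlap. Its lowest cat2-2 atrbohF array exceeded the highest cat2-2 atrbohD array by little. The direct difference of AT1G57590 was 0.40 and not called (limma adjusted p = 0.1945), and the gene left the rule without array 1 of cat2-2. TUB5 was at 9.66, 9.70 and 9.83 in cat2-2 atrbohF, 9.18, 9.22 and 9.72 in cat2-2 atrbohD, and 8.89, 8.86 and 8.65 in cat2-2. The direct difference of TUB5 was 0.35 and not called with all arrays (limma adjusted p = 0.183), and was 0.53 without array 3 of cat2-2 atrbohD (limma adjusted p = 0.019). TUB5 did not meet the rule without array 3, so the sign of the second value was fixed by the rule.

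Another 4 members encode small secreted or lectin-type proteins linked to defence. THI2.2 and AT1G66100 are thionins, cysteine-rich peptides of which some are antimicrobial. THI2.2 was at 8.50, 8.48 and 8.52 in cat2-2 atrbohF, 7.95, 7.48 and 8.88 in cat2-2 atrbohD, and 7.55, 6.87 and 7.42 in cat2-2, so that the cat2-2 atrbohF arrays differed by hundredths while the cat2-2 atrbohD arrays spread on both sides of them. AT1G66100, the member with the highest level, was at 12.69, 12.51 and 12.91 in cat2-2 atrbohF, 12.38, 11.85 and 13.07 in cat2-2 atrbohD, and 11.50, 11.92 and 11.76 in cat2-2. In both thionins the second cat2-2 atrbohD array lay within the cat2-2 range and the third above all cat2-2 atrbohF arrays.

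JAL22, a jacalin-related lectin, was at 8.01, 7.54 and 7.83 in cat2-2 atrbohF, 6.81, 6.70 and 7.26 in cat2-2 atrbohD, and 6.57, 5.76 and 6.69 in cat2-2. Its 3 genotypes did not overlap, though array 2 of cat2-2 atrbohD exceeded the highest cat2-2 array by little, and the direct difference was 0.87 ± 0.24 (SE, n = 3 each; limma adjusted p = 0.0821). AT5G66590, a CAP protein related to PR-1, was at 7.61, 7.51 and 7.80 in cat2-2 atrbohF, 7.66, 7.0 and 8.19 in cat2-2 atrbohD, and 6.88, 6.70 and 6.74 in cat2-2. All its double mutant arrays were above cat2-2, and its direct difference was 0.02 (95% interval -0.51 to 0.56). The 4 tested genes of the salicylic acid defence list held 0 members, and their median difference from cat2-2 was -1.18 in cat2-2 atrbohF and -0.43 in cat2-2 atrbohD. The jasmonate response list had 3 tested genes, the thionin gene THI2.1 and the defensin genes PDF1.2 and PDF1.2b, and 0 members. THI2.1 differed from cat2-2 by -0.03 in cat2-2 atrbohF and by 0.07 in cat2-2 atrbohD. PDF1.2 and PDF1.2b differed by -1.55 and -1.87 in cat2-2 atrbohF and by -1.84 and -1.92 in cat2-2 atrbohD.

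A pair of adjacent genes of the low temperature and salt responsive family of small membrane proteins were members with different replicate agreement. AT4G30660 was at 10.05, 9.82 and 10.11 in cat2-2 atrbohF, 9.42, 9.30 and 9.75 in cat2-2 atrbohD, and 8.55, 8.77 and 8.66 in cat2-2. Its neighbour AT4G30650 was at 8.41, 8.07 and 8.54 in cat2-2 atrbohF, 7.03, 7.64 and 8.61 in cat2-2 atrbohD, and 7.18, 7.16 and 7.03 in cat2-2. AT4G30660 formed 3 separate steps, whereas in AT4G30650 the cat2-2 atrbohD arrays covered the whole range between cat2-2 and cat2-2 atrbohF. The direct difference was 0.50 ± 0.13 for AT4G30660 (SE; limma adjusted p = 0.0697) and 0.58 ± 0.32 for AT4G30650 (adjusted p = 0.323). Without array 3 of cat2-2 atrbohD, limma called both, at 0.63 for AT4G30660 (adjusted p = 0.0169) and 1.00 for AT4G30650 (adjusted p = 0.019). AT4G30650 did not meet the rule without array 3, so the sign of its value there was fixed by the rule.

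BCAT4, the aminotransferase that starts methionine chain elongation for aliphatic glucosinolates, was at 11.02, 10.78 and 10.68 in cat2-2 atrbohF, 10.64, 10.06 and 10.22 in cat2-2 atrbohD, and 9.55, 9.58 and 9.98 in cat2-2. The genotypes did not overlap, and the direct difference was 0.52 ± 0.17 (SE, n = 3 each; limma adjusted p = 0.12). The only other tested gene of that list, the glucosyltransferase gene AT2G31790, was higher by 0.48 in cat2-2 atrbohF and by 0.08 in cat2-2 atrbohD. Fes1B, a nucleotide exchange factor for Hsp70 chaperones, was at 7.76, 7.72 and 8.10 in cat2-2 atrbohF, 7.5, 6.89 and 7.27 in cat2-2 atrbohD, and 6.55, 6.70 and 6.65 in cat2-2, again in 3 steps. Its direct difference was 0.64 ± 0.15 (SE; limma adjusted p = 0.0604).

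Beside PORB and AT4G30660, the smallest spread between arrays of a genotype among named members was found in 4 genes of less known role. AT4G32340, a tetratricopeptide repeat protein, was at 9.41, 9.22 and 9.35 in cat2-2 atrbohF, 8.99, 8.78 and 8.88 in cat2-2 atrbohD, and 7.97, 7.93 and 8.25 in cat2-2. AT2G40960, an R3H domain protein predicted to bind nucleic acids, was at 6.88, 6.93 and 6.85 in cat2-2 atrbohF, 7.24, 7.10 and 6.88 in cat2-2 atrbohD, and 6.49, 6.05 and 6.31 in cat2-2. All double mutant arrays of both genes lay above all cat2-2 arrays. AT4G32340 favoured cat2-2 atrbohF (difference 0.44 ± 0.10, SE; limma adjusted p = 0.0579) and AT2G40960 had the opposite sign (-0.19 ± 0.12, SE; adjusted p = 0.408). AT5G59130, a subtilisin-like protease, and AT1G20070 had an SD within genotypes of 0.14 each. They were higher by 0.73 and 0.82 in cat2-2 atrbohF and by 0.58 and 0.52 in cat2-2 atrbohD.

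In the contrast of cat2-2 atrbohD with cat2-2, limma called AT4G32340, AT4G30660 and AT2G40960, at adjusted p of 0.0151, 0.0454 and 0.0482. These 3 members are all of the probe sets called higher in that contrast, 0.0216% of those tested. In the contrast of cat2-2 atrbohF with cat2-2, 60 members were called, against 6.47% of all tested probe sets called higher. The rule used both contrasts, so nothing is read from these counts, and their difference in number is no test of a difference between the mutants.

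Where the cat2-2 atrbohD rise was the larger, the gap was small and often rested on array 3. petL and EXPA8 had the most negative direct difference among named members at -0.23, followed by AT1G76240 at -0.22, psbK at -0.20, AT2G40960 at -0.19 and AT5G01790 at -0.13. AT1G76240 was at 8.64, 8.57 and 8.56 in cat2-2 atrbohF, 8.56, 8.44 and 9.42 in cat2-2 atrbohD, and 8.11, 8.11 and 7.92 in cat2-2. AT5G01790 was at 7.65, 7.53 and 7.64 in cat2-2 atrbohF, 7.62, 7.38 and 8.21 in cat2-2 atrbohD, and 6.95, 7.09 and 7.06 in cat2-2. In both genes array 3 of cat2-2 atrbohD was the only one above all cat2-2 atrbohF arrays. Without it the direct difference turned positive for 4 of these 6 genes, at 0.03 for EXPA8, 0.09 for AT1G76240, 0.04 for psbK and 0.103 for AT5G01790, and was -0.54 for petL and -0.29 for AT2G40960. AT1G76240 and AT5G01790 did not meet the rule without array 3, so their positive sign there was fixed by the rule. Limma called none of these differences at an adjusted p under 0.05, and at an unadjusted p under 0.05 it also had 0.

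A few other named members were picked for mention after their values were seen. AT3G62550, a protein like the universal stress proteins, was at 9.64, 9.48 and 9.99 in cat2-2 atrbohF, 9.19, 8.89 and 9.28 in cat2-2 atrbohD, and 8.26, 8.68 and 8.65 in cat2-2, in 3 steps without overlap. Its direct difference was 0.58 ± 0.16 (SE; limma adjusted p = 0.0821). AT4G23680, of the major latex protein family, was higher by 1.11 in cat2-2 atrbohF and by 0.67 in cat2-2 atrbohD, and AT3G44970, a cytochrome P450, by 1.09 in cat2-2 atrbohF and by 0.67 in cat2-2 atrbohD. Both lost the rule without array 3 of cat2-2 atrbohD. AT1G18810, related to the phytochrome kinase substrate proteins, and AT4G38690, a phosphodiesterase like phospholipase C, had nearly equal rises. AT1G18810 was higher by 0.58 in cat2-2 atrbohF and by 0.56 in cat2-2 atrbohD, and AT4G38690 by 0.53 in cat2-2 atrbohF and by 0.56 in cat2-2 atrbohD.

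The other 43 members have no single gene name. Their difference from cat2-2 was 0.53 to 2.26 with a median of 0.96 in cat2-2 atrbohF and 0.50 to 1.59 with a median of 0.63 in cat2-2 atrbohD. Without array 3 of cat2-2 atrbohD, 23 of them met the rule, as did 23 of the 47 named members. Among them, 245736_at, 256589_at and 262661_s_at had the largest mean of both rises. 245736_at was at 8.43, 7.59 and 7.82 in cat2-2 atrbohF, 7.79, 6.88 and 7.69 in cat2-2 atrbohD, and 6.16, 5.21 and 6.21 in cat2-2. It had the largest cat2-2 atrbohD rise of all members, 1.59, beside 2.09 in cat2-2 atrbohF, and in each genotype array 2 was the lowest. 256589_at was at 9.33, 9.03 and 9.32 in cat2-2 atrbohF, 9.10, 7.55 and 8.26 in cat2-2 atrbohD, and 6.72, 7.42 and 6.77 in cat2-2, so that its cat2-2 atrbohD arrays ranged from near the highest cat2-2 array to the lower edge of cat2-2 atrbohF.

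The arrays of cat2-2 atrbohF lay closer together than those of cat2-2 atrbohD in these transcripts. The median SD over the members was 0.15 in cat2-2 atrbohF, 0.40 in cat2-2 atrbohD and 0.21 in cat2-2, against 0.10, 0.13 and 0.11 over all tested probe sets. All 3 cat2-2 atrbohF arrays were above all 3 cat2-2 arrays in 82 members (against 18.9% of all tested probe sets), all 3 cat2-2 atrbohD arrays were above cat2-2 in 56 members (against 6.13% of all tested probe sets), and both held in 53. The rule used these means, and a single high array can lift a mean past it. Nothing is therefore read from these counts or from the SDs of the members. Between the double mutants, all cat2-2 atrbohF arrays were above all cat2-2 atrbohD arrays in 21 members, which is 23.3% of them (against 12.5% of all tested probe sets). The reverse was seen in 0 (against 13.4% of all tested probe sets). The rule used both rises, so these shares are a description too.

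Single arrays of cat2-2 atrbohF stood above the cat2-2 mean by medians of 0.96, 0.76 and 0.97 over the members, and 83, 84 and 84 of the 90 members reached 0.5 on arrays 1, 2 and 3. Single arrays of cat2-2 atrbohD had medians of 0.66, 0.37 and 1.04, and 61, 29 and 85 members reached 0.5. On array 2 of cat2-2 atrbohD the rise was thus under the rule's threshold in most members. The median difference of array 3 of cat2-2 atrbohD from the cat2-2 atrbohF mean was -0.0044, with a range of -1.25 to 1.87.

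**Figure D3:**
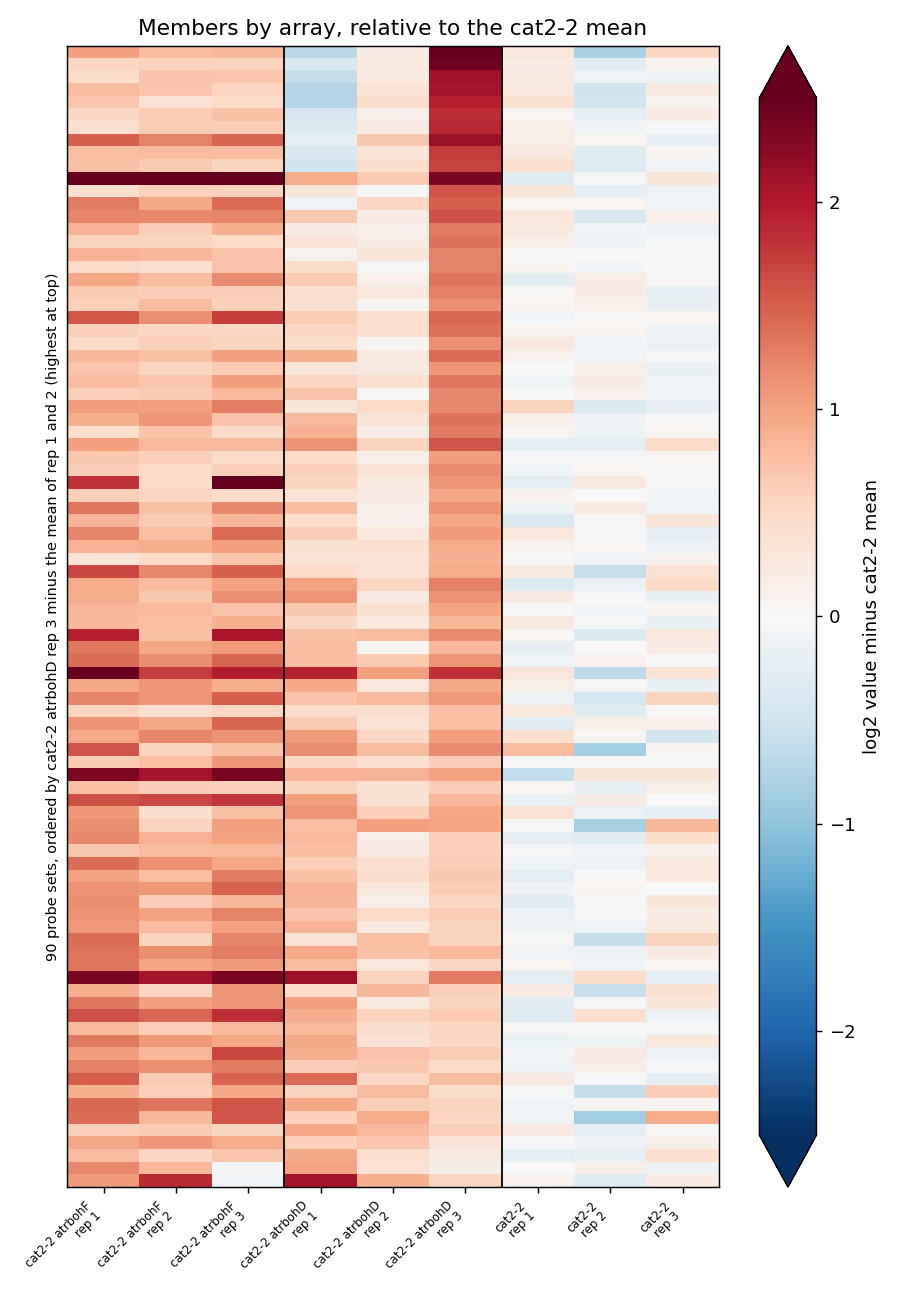
Rows are the 90 members, ordered by how far array 3 of cat2-2 atrbohD lay above arrays 1 and 2, and columns the 9 arrays (cat2-2 atrbohF, cat2-2 atrbohD, cat2-2); colour is the log2 value minus the cat2-2 mean, red above and blue below, with values past 2.5 at the end of the scale. Columns of cat2-2 atrbohF are evenly red, array 2 of cat2-2 atrbohD is the palest of the double mutant arrays with a median of 0.37, and array 3 of cat2-2 atrbohD is darkest at the top, where array 1 is blue.

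The 46 members that met the rule without array 3 had medians over the cat2-2 mean of 1.14, 0.97 and 1.1 on the cat2-2 atrbohF arrays and 0.88, 0.54 and 0.78 on the cat2-2 atrbohD arrays. For the other 44 the medians were 0.74, 0.65 and 0.76 in cat2-2 atrbohF and 0.43, 0.24 and 1.2 in cat2-2 atrbohD. The 46 held all 6 called members and 17 of the 21 members with cat2-2 atrbohF wholly above cat2-2 atrbohD; their median direct difference was 0.42, against 0.13 in the 44. Array 3 of cat2-2 atrbohD lay above all cat2-2 atrbohF arrays in 6 of the 46 and in 31 of the 44. Over all tested probe sets this share was 33.3%. The 44 passed the cat2-2 atrbohD condition only with array 3, so array 3 had to lie above the mean of arrays 1 and 2. The values of the 46 and the 44 are therefore a description, and nothing is read from their gap.

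In 9 members the mean of arrays 1 and 2 of cat2-2 atrbohD was below the cat2-2 mean, so that array 3 alone made the cat2-2 atrbohD rise. Of these, 4 had 1 gene. AT4G16750, a transcription factor of the DREB group of the ERF family, was at 5.76, 5.87 and 5.98 in cat2-2 atrbohF, 4.81, 5.36 and 7.08 in cat2-2 atrbohD, and 5.28, 5.00 and 5.44 in cat2-2. GLC, an acyltransferase of the BAHD family, was at 7.45, 7.12 and 7.25 in cat2-2 atrbohF, 6.03, 7.20 and 8.70 in cat2-2 atrbohD, and 7.14, 6.29 and 6.84 in cat2-2. In both genes array 1 of cat2-2 atrbohD was the lowest of all 9 arrays and array 3 the highest.

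AT1G06100, of the fatty acid desaturase family, was at 6.6, 6.35 and 6.39 in cat2-2 atrbohF, 4.87, 5.75 and 8.06 in cat2-2 atrbohD, and 5.85, 4.76 and 6.09 in cat2-2, and had the largest SD within genotypes of the named members at 1.04. AT4G28780, a lipase of the GDSL family, was at 7.68, 7.72 and 7.71 in cat2-2 atrbohF, 6.54, 7.24 and 8.67 in cat2-2 atrbohD, and 7.16, 6.62 and 6.99 in cat2-2. Across the 9 members array 3 lay 1.69 to 2.5 above the cat2-2 mean, and above all cat2-2 atrbohF arrays in each of the 9, while the cat2-2 atrbohF rise was 0.51 to 0.88. The other GDSL lipases, AT1G29670 and AT1G28570, also met the rule only with array 3, with arrays 1 and 2 on average 0.27 and 0.35 above cat2-2. AT5G44020, the second acid phosphatase family member, was at 10.72, 10.92 and 10.72 in cat2-2 atrbohF, 10.54, 10.16 and 11.28 in cat2-2 atrbohD, and 10.21, 10.25 and 9.94 in cat2-2, and lost the rule in the same way.

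**Figure D4:**
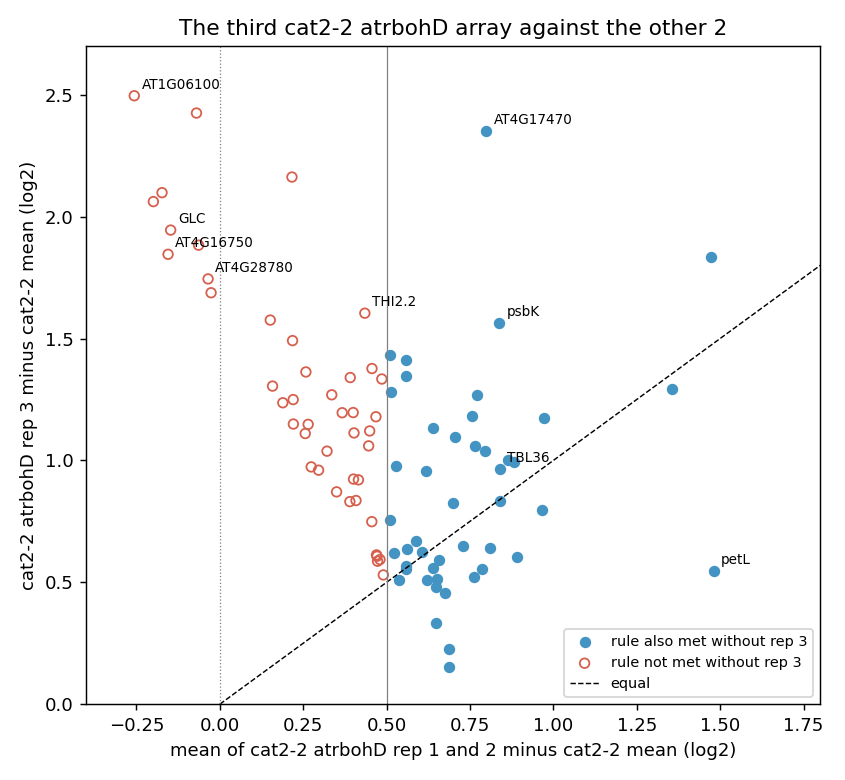
Each point is a member, with the mean of arrays 1 and 2 of cat2-2 atrbohD across and array 3 up, both minus the cat2-2 mean in log2 units; the dashed line marks equal values, the solid vertical line 0.5 and the dotted one 0. The 46 filled points right of 0.5 lie on both sides of the dashed line, the 44 open points all lie above it, and the 9 left of 0 include AT1G06100, GLC, AT4G16750 and AT4G28780. The place of the open points above the dashed line follows from how they were chosen.

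Leaving out other arrays also moved the membership. The second array of cat2-2 decided 31 members, including the 3 anthocyanin genes, JAL22 and AT2G40960, array 1 of cat2-2 atrbohD 13, array 1 of cat2-2 11, array 3 of cat2-2 9, and each of the remaining arrays 2 to 4. In all, 27 members kept the rule whichever single array was left out. The 10 of them with 1 gene were AT4G17470, AT2G39920, AT4G30660, AT4G32340, GH9B13, psbK, psbI, PORB, AT5G66590 and TBL36.

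The rule was also applied to 2 arrays of each genotype at a time and read on the arrays it had not used. Chosen without the arrays numbered 1, 149 probe sets met it, and 36 of them (24.2%) had both differences at 0.5 or more on those arrays, against 1.31% of all probe sets past the level. Without the arrays numbered 2, 19 of 145 (13.1%) did so, against 1.32%, and without those numbered 3, 31 of 70 (44.3%), against 1.98%. The difference of cat2-2 atrbohF alone reached 0.5 on the unused arrays in 55.0%, 62.8% and 77.1% of the chosen probe sets, against 4.62%, 4.71% and 6.39% of all. That of cat2-2 atrbohD did so in 26.2%, 13.1% and 48.6%, against 2.75%, 1.75% and 5.18% of all. Both differences on the unused arrays are taken from the same cat2-2 array, so they can move together without any effect, and no p is given.

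**Figure D5:**
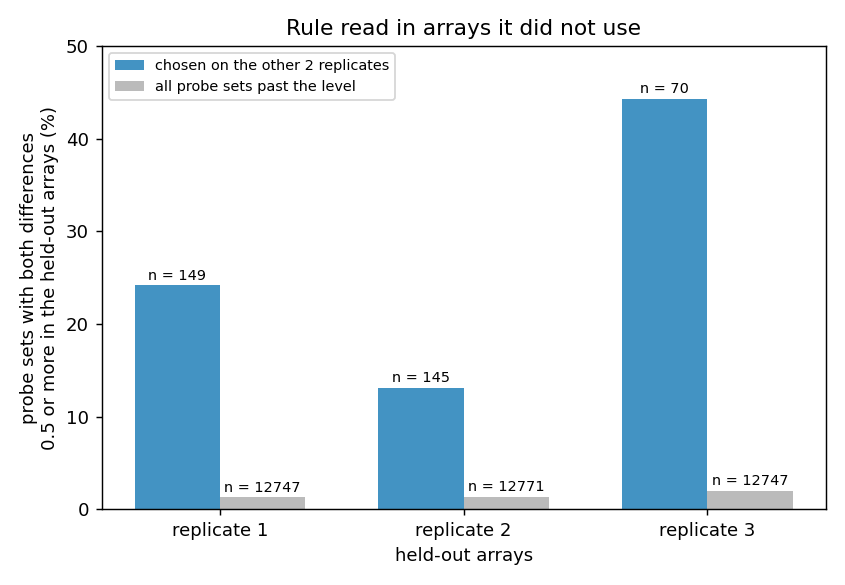
Bars give the percentage of probe sets with both differences from cat2-2 at 0.5 or more on the arrays not used for choosing, for each replicate number left out; blue bars are the probe sets chosen on the other 2 arrays of each genotype and grey bars all probe sets past the level, with their number above. The blue bars stand at 24.2%, 13.1% and 44.3% and the grey bars at 1.31%, 1.32% and 1.98%.

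Near the threshold, membership turned on hundredths of a log2 unit. Just inside were AT3G13980, with rises of 0.50 in cat2-2 atrbohF and 0.55 in cat2-2 atrbohD, and AT1G28570, with 0.51 in cat2-2 atrbohF and 0.52 in cat2-2 atrbohD. Just outside were AT3G16370, with 0.498 in cat2-2 atrbohF and 0.512 in cat2-2 atrbohD, and DPE1, the plastid disproportionating enzyme of starch breakdown, with 1.07 in cat2-2 atrbohF and 0.499 in cat2-2 atrbohD. DPE1 was at 7.67, 7.45 and 7.56 in cat2-2 atrbohF, 7.08, 6.86 and 7.03 in cat2-2 atrbohD, and 6.64, 6.43 and 6.40 in cat2-2, in 3 steps without overlap. Its direct difference was 0.57 ± 0.10 (SE, n = 3 each; limma adjusted p = 0.0364). The second array was lowest in both double mutants, as for AT4G17470.

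Of the pathway and marker lists, 35 in all with 60 tested loci of 425, 6 held a member: SWEET transporters 2 of 8 tested, flavonoid and anthocyanin synthesis 3 of 4, aliphatic glucosinolate synthesis 1 of 2, chlorophyll synthesis 1 of 3, cell wall loosening 1 of 2 and senescence 1 of 2, where SAG29 is counted again. Of all 13888 tested probe sets, 90 were members, and the lists were written with earlier results of these data known. The other tested gene of the senescence list, WRKY6, a transcription factor of senescing leaves, differed from cat2-2 by -1.02 in cat2-2 atrbohF (limma adjusted p = 0.00302) and by -0.74 in cat2-2 atrbohD (limma adjusted p = 0.103). In the direct comparison of the double mutants limma called 1 gene higher in the chlorophyll list, PORB, and 0 in the other 5 lists in either direction. Over all tested probe sets 0.864% were called higher in that comparison. Against cat2-2, cat2-2 atrbohF had 3, 2, 2, 2, 0 and 1 genes called higher in these lists in the order given, members included, against 6.47% of all tested probe sets. The rule used that contrast, so nothing is read from the calls of members. WRKY6 was the one gene of these lists called lower. In cat2-2 atrbohD, 0 were called in either direction in any of the 35 lists (against 0.0216% of all tested probe sets called higher). The lists of cold response and starch metabolism had 4 tested genes each and 0 members. Limma called 2 of the cold genes and 1 of the starch genes, DPE1, higher in cat2-2 atrbohF than in cat2-2 atrbohD (against 0.864% of all tested probe sets).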

How the data were processed

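Transcripts of pooled leaves were measured on 9 Affymetrix arrays, 3 per genotype, with biotin-labelled cRNA made from 5 µg of total RNA, per the labels' protocols. The authors deposited 1 log2 value per probe set and array. These come from GCRMA, per the submitters' processing notes, of which no version is known here. GCRMA corrects background by probe sequence and makes the array distributions nearly equal, which hides a shift common to most transcripts.

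The table held 22810 probe sets, of which 64 controls were left out. Two-sided tests used limma 3.58.1 under R 4.3.3 (lmFit, then eBayes without a trend), fitting a mean per genotype to all 9 arrays (6 residual degrees of freedom), on the 13888 probe sets whose third-highest value exceeded 5.14, the 40th percentile, with Benjamini-Hochberg adjustment over all of them. Fold changes are 2 to the power of log2 differences. Arrays have no read depth, and their number limits the precision: the median SE of a log2 difference was 0.10. Gene symbols came from the platform annotation (13513 probe sets with 1 gene, 503 with several, 8730 not listed), updated through a RefSeq table, which matched 13436. The fit was tested on simulated data.

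The members and the gene lists were chosen with earlier results of these data known. Named genes are members of 1 gene with the largest mean rise, the largest or smallest difference between the double mutants, a call in it, a place in a list, the largest or smallest SD, or a place next to the threshold, and members in groups by role. Alternatives were another filter or none, renormalization, centring, an intensity trend, weights per array, a fit of the 6 arrays of a comparison alone, a block for the replicate number, and leave-one-out fits. Replicate numbers are not stated to pair arrays. Deviations of same-numbered arrays correlated at -0.235 to 0.25, above 0.1 in most pairs, as the closing section gives. Those of differently numbered arrays correlated at -0.293 to 0.312, above 0.1 only at 0.151 and 0.312. Promoter and other sequences were not analysed here.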

Additional observations from a re-analysis of the deposited data

How the results depend on the processing

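Precision is set by 3 arrays per genotype and by the spread of cat2-2 atrbohD. Leaving out each array in turn gave 50 to 138 members of the rule instead of 90, lowest without array 3 and highest without array 2 of cat2-2 atrbohD. Quantile normalization again gave 99, median centring 109, no floor on the cat2-2 atrbohF level 95, and the median of 3 arrays in place of the mean 92, of which 62 were among the 90. The number of members called higher in cat2-2 atrbohF than in cat2-2 atrbohD, 6 with all arrays, was 0 to 20 across the fits that left out 1 array. It was 11 with the filter at the 60th percentile, 12 under array weights and 1 when fitted on the 6 arrays alone. No member was called lower (0) in any of the fits run. Over all probe sets the calls in either direction, 267 with all arrays, were 1 to 1079 without 1 array, 164 without a filter, 455 under the stricter filter, 703 under array weights and 2 on the 6 arrays alone, where the spread is estimated from fewer arrays. Members called in cat2-2 atrbohD over cat2-2, 3 with all arrays, were 0 to 9 without 1 array, 1 under the stricter filter, under no filter and under array weights, 5 with an intensity trend and 0 on the 6 arrays alone. Members called in cat2-2 atrbohF over cat2-2, 60 with all arrays, were 34 to 79 without 1 array, with 37 without array 2 of cat2-2, 34 without array 1 and 39 without array 3 of cat2-2 atrbohF. The median direct difference of 0.25 was 0.08 to 0.46 without 1 array and stayed positive in the other settings run. The labels do not say that replicate numbers pair the arrays, and the deviations of same-numbered arrays correlated above 0.1 in 6 of 9 pairs, all 3 between cat2-2 atrbohF and cat2-2 included, and below 0 in 2; with the replicate number as a block, 8 members were called between the double mutants, 393 probe sets in all, 5 members in cat2-2 atrbohD over cat2-2 and 61 in cat2-2 atrbohF over cat2-2. For named genes in the direct comparison, 482 values under an alternative kept their direction and side of the threshold, 18 became called, 18 lost a call and 20 changed sign, none of these called. Array weights gave 0.10 for GH9B13 and 0.12 for GLC. Leaving out 1 array gave -0.39 to 0.12 for GH9B13, -0.68 to 0.66 for GLC, -0.69 to 0.29 for petL, -0.35 to 0.78 for AT4G16750, -0.46 to 1.13 for AT1G06100, -0.46 to 0.044 for psbK, -0.025 to 0.34 for SWEET13, -0.31 to 0.10 for AT5G01790, -0.53 to 0.029 for EXPA8, -0.11 to 0.045 for AT3G13980, -0.40 to 0.087 for AT1G76240 and -0.11 to 0.16 for AT1G28570. The cause of these changes was not tested.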
